A study of Zea mays with 4 samples.

Results

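Dehydrin dhn2 (LOC542251, also listed as dehydrin3) and small heat shock protein gene hsp22 (LOC542602) were followed on maize arrays of 2 lines, Cm489 and F98908. The members are all probe sets whose single platform gene symbol, or a synonym of it in the RefSeq gene table, is dhn2 or hsp22. That rule gave 4 probe sets, 3 for dhn2 and 1 for hsp22, of 17621 maize probe sets in the table, 1452 of which carry 1 gene symbol. The pair stands for 2 of the 1108 genes named by 1 symbol. Both genes were chosen by their log2 difference between the lines, higher in F98908, so that difference is given as a description without a test. The series was set up to study how cell walls vary among maize lines and how that bears on digestibility.

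Dehydrins are hydrophilic, largely unstructured proteins of the late embryogenesis abundant (LEA) group. Plants make them in maturing seeds and, in many species, in vegetative tissue that loses water, often under the control of the hormone abscisic acid. Small heat shock proteins bind unfolding proteins and keep them from clumping until other chaperones refold them. The maize hsp22 product is a small heat shock protein of mitochondria, and genes of this family are known for low expression at normal temperature and strong induction by heat.

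Each line was measured on 2 Affymetrix arrays, from total RNA of 21 day old plants at the 7 leaves stage. The material is labelled only as aerial, the day was 16 h long at 50% humidity, and no heat, drought or hormone treatment is recorded for any array. Separate plants or pools are not stated for the arrays of either line. Both F98908 arrays carry one and the same extract label (213 ug), while the Cm489 arrays carry different ones (177 and 170 ug). Spreads within a line, and p-values built on them, may thus be technical, and the labels raise this most for F98908.

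Values are deposited log2 values per probe set, and levels are read within a probe set across arrays. The medians of the 4 arrays over maize probe sets lay between 6.64 and 6.66. The highest of 23 control probe sets without a target in the plant stood between 2.45 and 2.50, which serves as a background mark. Of the leaf markers, the Rubisco small subunit gene rbcS was at 11.53 to 12.28, and pdk1, the C4 enzyme pyruvate phosphate dikinase, at 8.88 to 9.76. The C4 genes pep1 (phosphoenolpyruvate carboxylase) and me3 (NADP-malic enzyme) stayed under log2 4, except for pep1 on Cm489 array 1 at 5.44. Seeds are a known source of LEA transcripts. Of 5 kernel and embryo genes matched by symbol, ole1, glb1 and glb2 lay at 2.06 to 2.49, at the background mark, and the zein gene zp27 at 4.42 and 4.44 in Cm489 and 5.02 and 4.80 in F98908 (limma adjusted p = 0.0841). The fifth match, GLB1 (LOC541815, also Hb), is a different gene from glb1 and carries a haemoglobin symbol, so it may not mark kernels. It read 7.70 and 8.94 in Cm489 and 7.51 and 7.30 in F98908 (limma adjusted p = 0.278). The root gene zrp4 stood at 10.99 and 10.78 in Cm489 and at 3.14 and 2.48 in F98908 (limma adjusted p = 0.000798). The part of other tissues in the results below was not tested.

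The dehydrin gene dhn2 was well above background in both lines and higher in F98908 on each of its 3 probe sets, by 1.33 to 2.63 log2 units. Probe set Zm.4870.1.A1_a_at read 10.56 and 10.25 on Cm489 arrays 1 and 2, and 12.18 and 12.34 on F98908 arrays 1 and 2. Both F98908 arrays lay above both Cm489 arrays. The line means were 10.40 ± 0.21 and 12.26 ± 0.11 (SD, n = 2 arrays per line), a difference of 1.86 or 3.62-fold.

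Probe set Zm.4870.1.A1_x_at, designed from the same target sequence, read 9.71 and 9.08 in Cm489 and 11.95 and 12.11 in F98908. Its means of 9.40 ± 0.45 and 12.03 ± 0.11 (SD, n = 2 arrays per line) differ by 2.63, or 6.20-fold. The lines did not overlap, and the lowest of the 4 pairwise differences between arrays of different lines was 2.24. The suffix x marks a probe set with some probes that may match other sequences.

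Probe set Zm.4870.2.S1_a_at, designed from a second target sequence, read 12.04 and 11.86 in Cm489 and 13.30 and 13.26 in F98908. The difference was 1.33 or 2.51-fold, with means of 11.95 ± 0.12 and 13.28 ± 0.02 (SD, n = 2 arrays per line), again without overlap. The highest value of any probe set on these arrays was between 14.68 and 14.79.

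Mitochondrial small heat shock gene hsp22 has a single probe set, Zm.369.1.A1_at. It read 3.78 and 3.18 on the Cm489 arrays and 6.29 and 5.89 on the F98908 arrays. The lines were separated by at least 2.10 log2 units in every pair of arrays. In Cm489 the transcript was above the background mark and below log2 4, the level that a probe set had to pass on at least 2 arrays to be tested. The means were 3.48 ± 0.43 and 6.09 ± 0.28 (SD, n = 2 arrays per line), a measured difference of 2.60. Set against log2 4, the mean of F98908 was 4.25-fold higher. The plot of member values by array shows the 4 probe sets side by side.

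**Figure D1:**
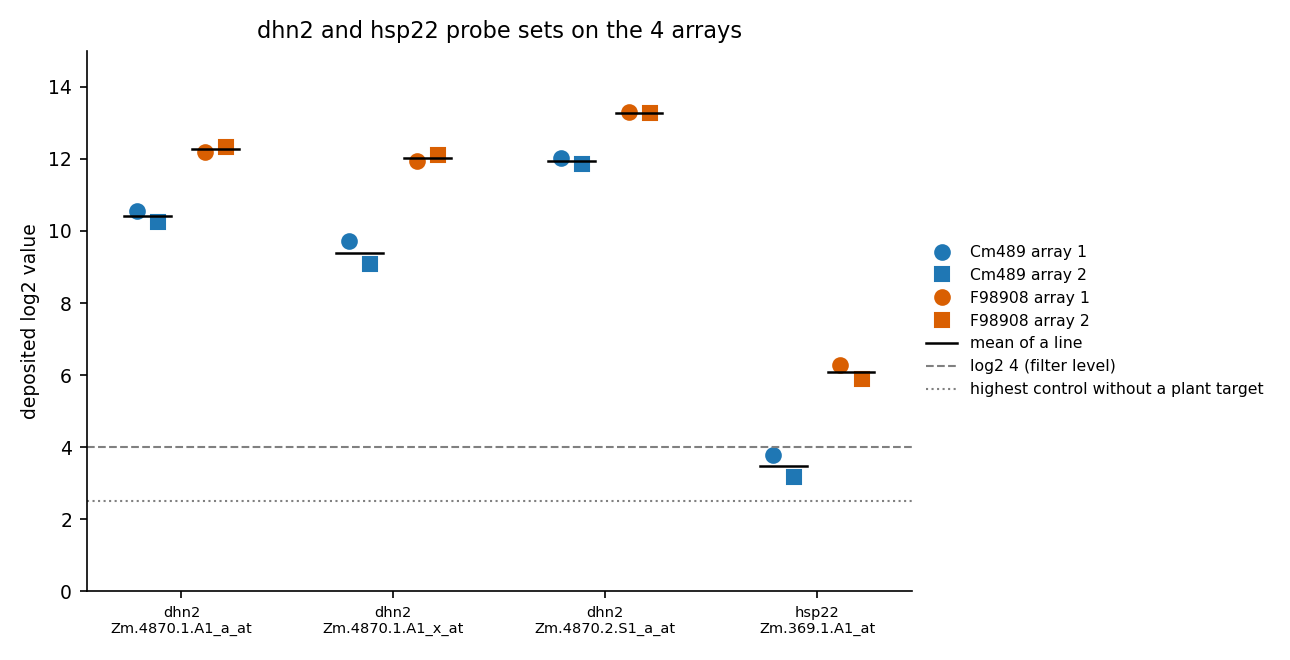
Deposited log2 value (vertical axis) of the 3 dhn2 probe sets and the hsp22 probe set on each array, with circles for array 1, squares for array 2 and a bar for the mean of each line. In all 4 probe sets both F98908 arrays lie above both Cm489 arrays, and for hsp22 the Cm489 arrays (3.78 and 3.18) lie between the background mark (dotted) and log2 4 (dashed).

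All 4 probe sets passed the filter on dim values, hsp22 through its F98908 arrays only. All 4 had both F98908 arrays above both Cm489 arrays. The members were chosen for their difference between the lines, so this order is no separate evidence. Over the 11263 tested probe sets, 28.5% showed that order, and 7.35% showed it with a mean difference of at least 1 log2 unit. In limma's fit over all tested probe sets, 7.27% were called higher in F98908 and 8.02% lower (adjusted p under 0.05), and the 4 members are among the first by the choice that put them here. The median difference over all tested probe sets was -0.03. In bulk tissue, fewer cells of a type and less RNA per cell cannot be told apart.

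The 3 dhn2 probe sets gave the same direction with unequal sizes. Their differences spanned 1.30 log2 units, from 1.33 to 2.63. The 2 probe sets of the shared target sequence were themselves unequal: the first minus the second was 0.84 and 1.17 on the Cm489 arrays and 0.23 on each F98908 array. Averaged over its 3 probe sets, dhn2 was at 10.77 and 10.40 in Cm489 and at 12.48 and 12.57 in F98908, a difference of 1.94 or 3.84-fold.

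Among 114 named genes with at least 2 tested probe sets, the median span of the difference was 0.21, and 14 genes spanned more than dhn2. Of the 32 with at least 3 tested probe sets, 3 spanned more. The plot of agreement between probe sets places dhn2 among the genes with wide but one-sided spans. It was chosen for being higher in F98908, so the one-sided span is no separate evidence. Some genes with wider spans were one-sided too, such as expA4 (1.15 to 3.03) and cpi2 (-3.30 to -1.09), while others crossed 0.

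**Figure D2:**
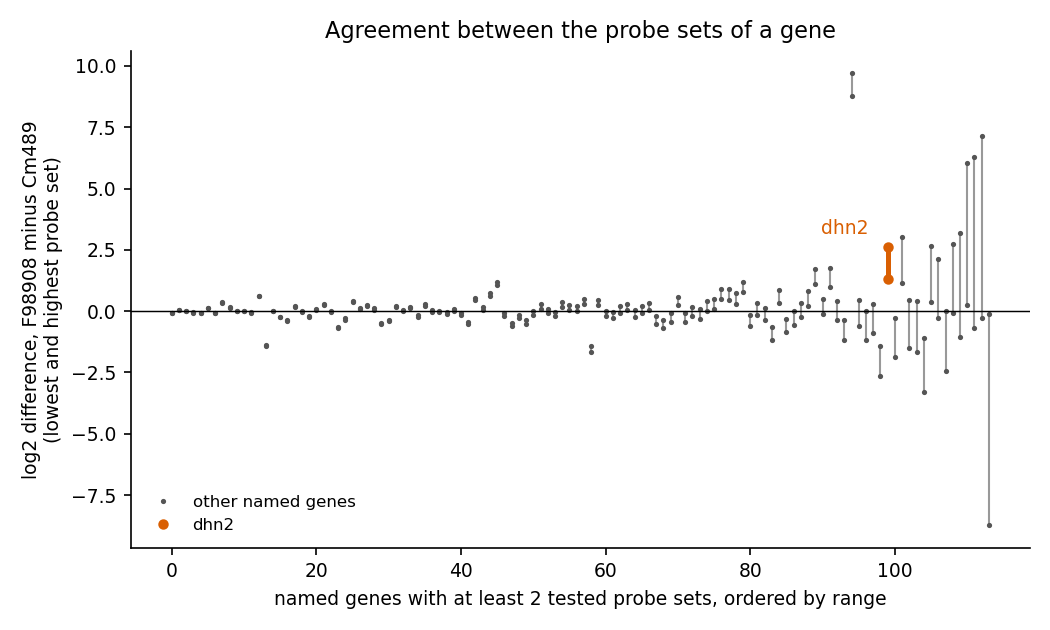
Lowest and highest log2 difference (F98908 minus Cm489, vertical axis) among the tested probe sets of each of 114 named genes, ordered along the horizontal axis by the span between them. The span of dhn2, a gene chosen for being higher in F98908, runs from 1.33 to 2.63 and stays above 0. Of the genes with wider spans at the right end, some cross 0 and others do not.

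On each member probe set the arrays of a line differed less than arrays of different lines. The members were chosen for their difference between the lines, so this order of sizes is no separate evidence. For dhn2, Cm489 array 1 minus array 2 was 0.30, 0.63 and 0.17 on the 3 probe sets in the order above, all with array 1 higher. The corresponding F98908 differences were -0.16, -0.15 and 0.03. For hsp22, array 1 was higher by 0.60 in Cm489 and by 0.40 in F98908. Those hsp22 differences were larger than those of 86.7% and 86.1% of tested probe sets in the same line, where the median absolute differences were 0.21 and 0.13. The widest dhn2 difference, 0.63 in Cm489, was larger than 87.8% of tested probe sets.

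The other dehydrin and LEA genes matched by symbol or synonym were dim, and probe sets without a gene symbol were not searched. The list held 2 genes besides dhn2, and neither was bright enough to be tested. The gene dhn1 (LOC542373, also rab17), a dehydrin known from maize embryos and from leaves treated with abscisic acid, read 2.18 and 2.18 in Cm489 and 3.14 and 2.16 in F98908. Only F98908 array 1 was above the background mark. The LEA gene mlg3 (LOC542216) was at 2.16 to 2.17 on every array. Both related transcripts were thus at the background mark on at least 3 of the 4 arrays, on which dhn2 was bright.

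Genes of the heat shock list gave 0 calls among the 7 tested besides hsp22 (limma, 0 also at an unadjusted p under 0.05). Over all tested probe sets 15.3% were called in either direction and 32.4% had an unadjusted p under 0.05. Their median difference was -0.06, with 2 of 7 positive and a range from -0.60 to 0.28. The 3 with the smallest p were hsfb, HSP60-1 and emp2. The heat shock factor gene hsfb, from the family that switches on heat shock genes, was at 4.92 and 4.53 in Cm489 and 4.12 and 4.35 in F98908 (difference -0.49 ± 0.19 SE, limma adjusted p = 0.183). HSP60-1, the chaperonin of mitochondria and so of the same organelle as the hsp22 protein, differed by 0.28 ± 0.13 SE (limma adjusted p = 0.243). The binding protein gene emp2, whose product holds back heat shock factors, differed by -0.15 ± 0.11 SE (limma adjusted p = 0.418).

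Small heat shock genes other than hsp22 were dim or varied within a line. The gene hsp18f (LOC542723) read 7.30 and 8.43 in Cm489 and 7.64 and 6.88 in F98908, with overlap between the lines. HSP18 (LOC542293, also hsp18a) read 3.93 and 4.03 in Cm489 and 3.94 and 2.72 in F98908 and was not tested. The genes hsp18 (LOC542576, also hsp26, the small heat shock protein of chloroplasts) and hsp18c (LOC100037778) stayed at or under 2.58 on every array. The disaggregase gene hsp101, which works with small heat shock proteins on clumped protein, was at 6.67 and 6.50 in Cm489 and 6.81 and 6.36 in F98908, with overlap.

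The list of other chaperones, which fold proteins mainly in the endoplasmic reticulum, gave 0 calls among 17 tested genes (limma). Over all tested probe sets 15.3% were called. At an unadjusted p under 0.05 the list had 4 genes, against 32.4% of all tested probe sets. The median difference was -0.08. Its smallest p values belonged to the protein disulfide isomerase genes pdi10 (-0.45, adjusted p = 0.0657), pdi11 (-0.41, adjusted p = 0.0786) and pdi4 (0.46, adjusted p = 0.0797). HSP60-1 belongs to both chaperone lists.

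Abscisic acid genes gave 1 call among 6 tested, upward, a share near the 15.3% called over all tested probe sets. The median difference was 0.14, with 5 of 6 positive. The called gene, pp2c-1 (LOC541808), encodes a protein phosphatase of the PP2C family, part of which turns abscisic acid signalling down. It rose from 8.97 and 9.06 in Cm489 to 9.81 and 9.87 in F98908 (difference 0.82 ± 0.10 SE, limma adjusted p = 0.0202). The call was lost with any single array left out (adjusted p from 0.0591 to 0.167) and with the F98908 arrays as 1 sample (adjusted p = 0.164).

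The factor gene dbf1 encodes a protein known in maize to bind the drought responsive element of the rab17 promoter. It read 7.27 and 7.49 in Cm489 and 8.96 and 7.37 in F98908 (limma adjusted p = 0.430). The high value is that of F98908 array 1, the array on which dhn1, too dim to be tested, was at 3.14. Each of these values rests on 1 array, and a link between dbf1 and dhn1 was not tested. On F98908 array 1 dhn2 averaged 12.48 against 12.57 on F98908 array 2, and hsp22 read 6.29 against 5.89. DREB2 differed by 0.03 (limma adjusted p = 0.877).

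Other genes of that list were dim: vp14, the carotenoid-cleaving enzyme of abscisic acid synthesis, at 2.07 on every array, and vp1, the regulator of seed maturation, at 2.44 to 2.49 on its brightest probe set. For aba1 (LOC542304, also asr1), a gene named for its response to abscisic acid, stress and ripening, the brighter probe set differed by 0.24 (limma adjusted p = 0.350). Its other probe set of the same target read 2.33 and 11.13 in Cm489 and 13.01 and 12.55 in F98908. The gene PP2C (LOC542176) likewise split, at 0.01 on its brighter probe set and -2.42 on its other (limma adjusted p = 0.0102). Both aba1 probe sets were higher in F98908 in every pair of arrays between the lines. That order held for 28.5% of all tested probe sets. On the brighter aba1 probe set the closest pair was 12.78 in F98908 against 12.74 in Cm489, and neither was called (limma adjusted p = 0.350 and 0.291). The dhn2 probe sets, chosen for their difference between the lines, were at least 1.23 apart in every pair.

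Enzymes that remove superoxide and hydrogen peroxide gave 0 calls among 6 tested genes (limma, 1 at an unadjusted p under 0.05, against 15.3% called and 32.4% unadjusted over all tested probe sets). Their median difference was 0.02. Smallest in p were the superoxide dismutase gene sod2 (-0.48, adjusted p = 0.111), the ascorbate peroxidase gene apx (-0.27, adjusted p = 0.227) and the catalase gene CAT3 (0.58, adjusted p = 0.359).

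Genes of the response to oxygen shortage gave 1 call among 5 tested, downward, a share near the 15.3% called over all tested probe sets. The median difference was -0.16. The alcohol dehydrogenase gene adh2 fell from 8.01 and 8.07 in Cm489 to 6.29 and 5.74 in F98908 (difference -2.02 ± 0.22 SE, limma adjusted p = 0.0155). The call was lost without Cm489 array 1 (adjusted p = 0.0702), Cm489 array 2 (0.0815) or F98908 array 2 (0.0557), and with no filter on dim probe sets (0.0603), but not without F98908 array 1 (0.0376). Its relative adh1 differed by 0.09 (limma adjusted p = 0.659). Of the 5 stress lists with tested genes, 1 gene in 1 list was called upward and 1 in another downward, as the plot of list differences shows.

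**Figure D3:**
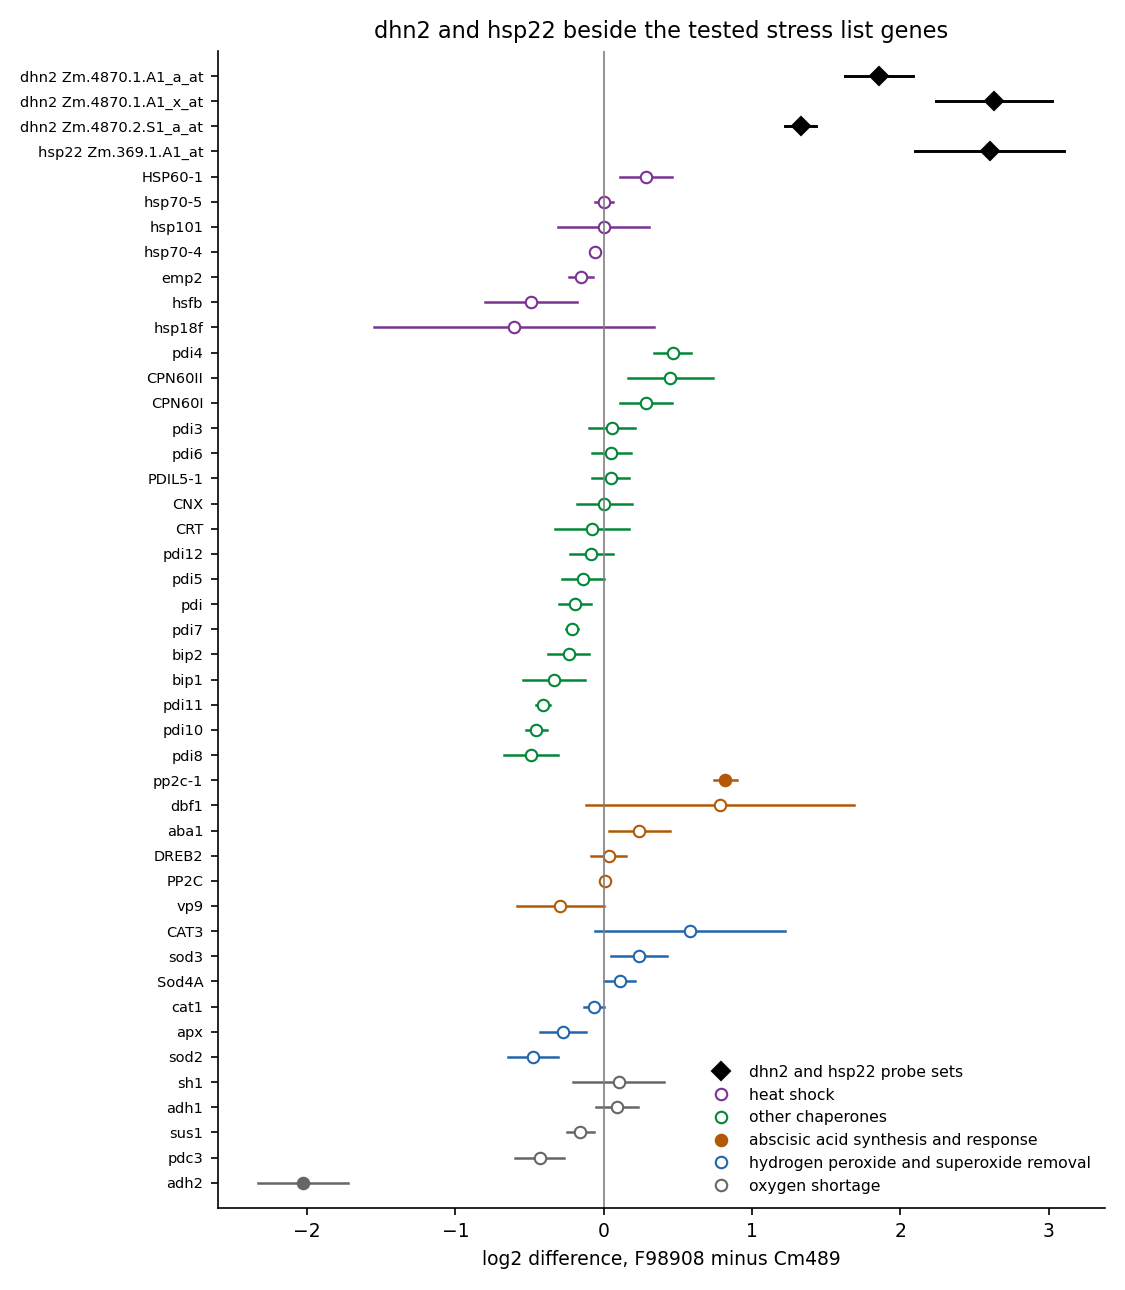
Log2 difference (F98908 minus Cm489, horizontal axis) of the 4 member probe sets (diamonds) and of each tested list gene by its brightest probe set (circles, filled where limma called it). Lines run from the lowest to the highest of the 4 differences between arrays of different lines; pp2c-1 (0.82) and adh2 (-2.02) are the filled circles, and HSP60-1 appears a second time as CPN60I.

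The genes most like the members over the 4 arrays were found among 970 tested probe sets of 817 named genes. Likeness was the Euclidean distance between log2 values centred on each probe set's own mean, a measure that the line difference dominates and that describes 4 arrays only. The closest to hsp22 was dhn2, through Zm.4870.1.A1_x_at, at a distance of 0.39. Both genes were chosen for being higher in F98908, so their closeness on this measure is no separate evidence of a link. Against the mean of the 3 dhn2 probe sets the distance was 0.77, larger than those of Lsi6, expA4 and TIP1-2 given below. The 5 genes closest to dhn2 did not include hsp22.

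Next to hsp22 came the silicon channel gene Lsi6 (0.58; 6.58 and 6.67 in Cm489, 9.06 and 8.85 in F98908), the expansin gene expA4 (0.70), the vacuolar aquaporin gene TIP1-2 (0.71) and the cysteine proteinase inhibitor gene Cystatin (0.93). These distances rest on 1 probe set per gene: the 2 tested probe sets of Cystatin differed between the lines by -1.05 and 3.20, and those of expA4 by 1.15 to 3.03. With values under log2 4 set to 4, 2 of these 5 genes remained among the closest. Closest to dhn2 were MPAO (0.44; 9.43 and 9.41 in Cm489, 10.91 and 11.47 in F98908), a polyamine oxidase, and orc1 (0.48), a subunit of the origin recognition complex. They were followed by the bZIP factor gene obf3.2 (0.49; 1.09 to 1.73 higher in F98908 over its 2 tested probe sets), the plastid glucose transporter gene glct1 (0.50) and LOC542342 (0.51), which the tables used here leave without a further name. The plot of centred profiles shows the member and its 5 closest genes for each.

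**Figure D4:**
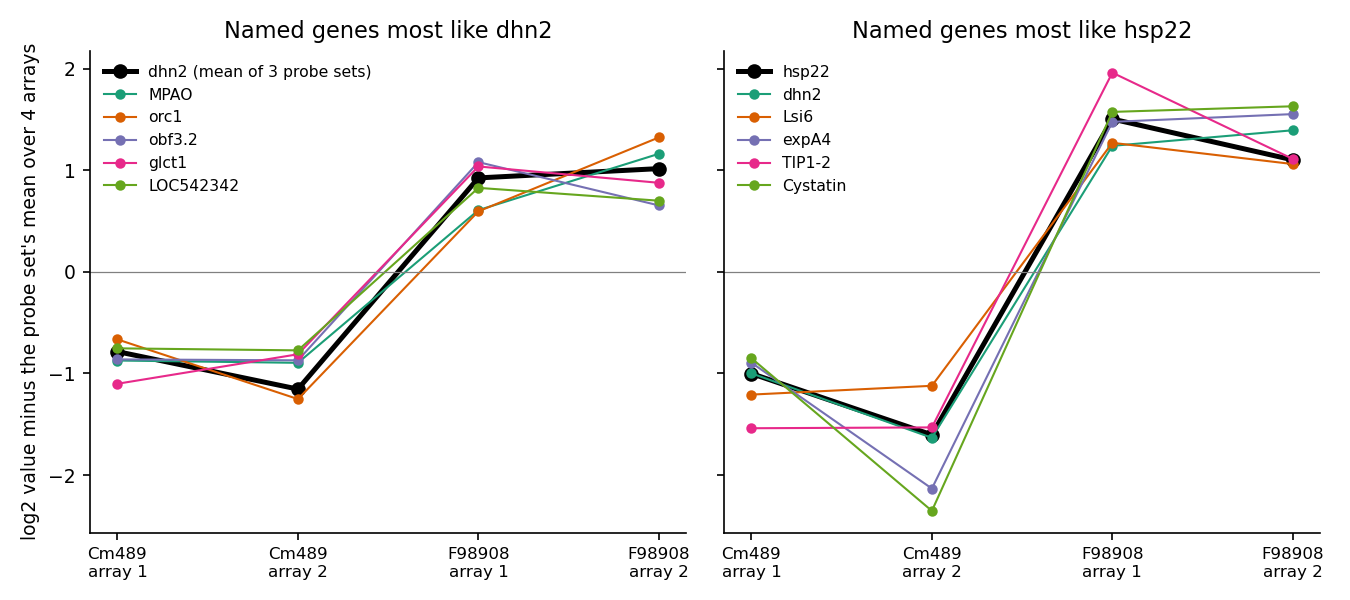
Log2 value minus the probe set's mean over the 4 arrays (vertical axis) for dhn2 with its 5 closest named genes (left) and hsp22 with its 5 closest (right). All profiles are low on the Cm489 arrays and high on the F98908 arrays; hsp22 and the dhn2 probe set Zm.4870.1.A1_x_at nearly coincide on the Cm489 arrays.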

How the data were processed

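The deposited log2 values, 1 per probe set and array, were made by the authors with GCRMA, per the submitters' processing notes; the version is not given in the sources used here. This method corrects background from probe sequence and sets arrays to a common distribution, which removes differences in total output. Of 17734 probe sets, 113 array controls were left out, and the 11263 over log2 4 on at least 2 of the 4 arrays were fitted in R 4.3.3 with limma 3.58.1 (eBayes, two-sided tests of F98908 minus Cm489 without a replicate block, Benjamini-Hochberg over all tested). Names came from the platform annotation and RefSeq assembly Zm-B73-REFERENCE-NAM-5.0, where 1060 of 1108 genes matched. List genes were represented by the probe set with the highest mean. Named genes were the members, called list genes or otherwise the 3 smallest p, and the 5 closest profiles; other genes were named after their values were seen. Members and lists were chosen with earlier results of these data known. The number of arrays limits the precision.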

Additional observations from a re-analysis of the deposited data

How the results depend on the processing

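The 4 member differences kept their direction under every alternative run: floor, centring, quantile normalization, replicate block and each array left out. The floor, the replicate block and leaving out an array could not reverse it, because both F98908 arrays lay above both Cm489 arrays. The members were chosen for this difference, so the kept direction is no separate evidence. With single arrays left out, the dhn2 differences in the order above ran from 1.71 to 2.01, 2.31 to 2.95 and 1.24 to 1.42. Those of hsp22 ran from 2.30 to 2.91. With values under log2 4 set to 4, the hsp22 difference was 2.09 and its Cm489 arrays differed by 0. Quantile normalization took the F98908 array difference of Zm.4870.2.S1_a_at from 0.03 to -0.0057. Over all probe sets, 819 were called higher and 903 lower. The count higher was 505 at a mean over log2 6, 248 with the F98908 arrays as 1 sample and 257 to 543 with single arrays left out; the count lower was 170 with F98908 as 1 sample and 176 to 536 with single arrays left out. With the replicate block the counts were 409 and 371, and pp2c-1 was not called, so the abscisic acid list had 0 calls upward (also 0 with F98908 as 1 sample and 0 to 0 with single arrays left out). The replicate numbers are not stated to mark a shared batch, and array 1 minus array 2 correlated at -0.36 between the lines over 11263 probe sets; with crossed numbers, chosen after seeing the data, 889 were higher and 973 lower. The oxygen shortage list had 0 to 1 downward calls with single arrays left out. Without a filter, 1 gene of the other chaperones was called lower, and counting any probe set, 1 abscisic acid gene (PP2C) was. The cause of these changes was not tested. In fits on 3 arrays, a lone array is assumed to vary like the other line.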

Other observations

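In the gene order of the RefSeq B73 assembly, which may differ from that of either line, the nearest measured named genes on each side of dhn2 were the aquaporin gene PIP1-3 (15 annotated genes between) and HMG11, a high mobility group protein gene (3 between). PIP1-3 was higher in F98908 on all 4 of its tested probe sets, by 1.05 to 1.17 log2 units, and its brightest read 11.06 and 11.40 in Cm489 and 12.28 and 12.53 in F98908 (limma adjusted p = 0.0306). It was called in 5 of 13 alternatives for that probe set (adjusted p from 0.0232 to 0.180). HMG11 differed by -0.41 (limma adjusted p = 0.0843).

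The nearest measured named genes beside hsp22 were the cyclin gene cycD2 (7 annotated genes between), at 0.20 (limma adjusted p = 0.393), and aprl3 (16 between), at -0.45 (limma adjusted p = 0.102). Neither was called in any of its 13 alternatives.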
